A study of Mus musculus with 12 samples.

Results

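Chromatin accessibility was compared between Th17n cells cultured with difluoromethylornithine (DFMO) and Th17n cells cultured with vehicle, in 6 of the 12 ATAC-seq libraries of the series. All peaks of the count table that passed a count filter entered the comparison, 43726 of 48443. The 4 groups of the series, of 3 libraries each, were Th17n with DFMO, Th17n with vehicle, iTreg with DFMO and iTreg with vehicle. All cells were wild-type C57BL/6 mouse spleen T cells, sorted as naive CD4+ cells and activated on plates coated with antibodies to CD3 and CD28 at 1 µg/ml each. Th17n cultures, read here as the protocol's non-pathogenic Th17 condition, received IL-6 at 25 ng/ml and TGF-beta1 at 2 ng/ml, and iTreg cultures received TGF-beta1 at 2 ng/ml alone. DFMO was used at 100 µM, cultures were harvested at 68 hours, and live cells were sorted and frozen before the libraries were made. The labels number the libraries of each group 1 to 3. These numbers are read here as 3 animals, each of which gave 1 library to every group. The p-values of peaks rest on the spread among the 3 libraries of each group, pooled over all 4 groups. The main fit had no term for the animal.

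DFMO inactivates ornithine decarboxylase, the enzyme that makes putrescine and so feeds the polyamines spermidine and spermine. Spermidine donates the group that turns a lysine of the translation factor eIF5A into hypusine, and polyamines bind nucleic acids. Th17 cells are CD4+ T cells that make IL-17A and IL-17F, while iTreg cells follow the factor Foxp3. ATAC-seq reads the cuts of the Tn5 transposase, which enters open DNA more readily than DNA held in nucleosomes, so a peak's count measures how open that region was. Genes for transfer RNAs are short, carry their promoter inside the transcribed part and are read by RNA polymerase III.

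The promoter stretches of Il17a, Kctd12, Eif5a and Socs1 are given first, because in each the peak over the gene's start moved with DFMO, downward at the Il17a and Kctd12 starts and upward at the others. They are the 250 bases before a start listed by RefSeq (GRCm38.p6), read 5' to 3' on the gene's strand, and capitals mark letters that match any of 6 short patterns searched on both strands. The patterns were TGANTCA (AP-1 type), GGAAGT (ETS type), TGTGGT (RUNX type), GGGCGG (GC box), GAAA-NN-GAAA (IRF type, N for any base) and AGGTCA (nuclear receptor half-site type), and a match is a description of letters only.
Il17a, chr1:20730655-20730904, plus strand: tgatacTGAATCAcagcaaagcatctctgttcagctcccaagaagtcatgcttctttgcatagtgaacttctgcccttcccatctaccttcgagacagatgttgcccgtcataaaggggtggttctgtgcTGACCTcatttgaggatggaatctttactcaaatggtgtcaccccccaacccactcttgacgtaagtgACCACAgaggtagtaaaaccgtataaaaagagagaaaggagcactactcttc
Kctd12, chr14:102982638-102982887, minus strand: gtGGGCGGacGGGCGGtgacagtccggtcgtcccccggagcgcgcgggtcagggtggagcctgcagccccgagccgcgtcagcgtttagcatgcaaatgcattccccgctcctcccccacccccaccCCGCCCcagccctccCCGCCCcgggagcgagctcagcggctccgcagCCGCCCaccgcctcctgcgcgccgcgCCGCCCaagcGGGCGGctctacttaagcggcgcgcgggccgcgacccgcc
Eif5a, chr11:69921387-69921636, minus strand: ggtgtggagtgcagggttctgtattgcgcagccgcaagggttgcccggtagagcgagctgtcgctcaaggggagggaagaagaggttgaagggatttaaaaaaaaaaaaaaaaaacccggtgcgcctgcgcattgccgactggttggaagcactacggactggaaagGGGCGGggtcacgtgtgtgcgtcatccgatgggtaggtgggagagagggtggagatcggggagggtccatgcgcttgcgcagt
Socs1, chr16:10785537-10785786, minus strand: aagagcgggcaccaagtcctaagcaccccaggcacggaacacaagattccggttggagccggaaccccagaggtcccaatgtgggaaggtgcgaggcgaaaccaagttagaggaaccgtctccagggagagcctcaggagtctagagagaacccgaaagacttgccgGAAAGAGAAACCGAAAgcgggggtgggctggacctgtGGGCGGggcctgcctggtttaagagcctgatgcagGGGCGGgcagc
The Il17a stretch held an AP-1 match starting 244 bases before the start, a nuclear receptor half-site match on the opposite strand 120 bases before it and a RUNX match on the opposite strand 52 bases before it. The Kctd12 stretch held 7 GC boxes and no other match. Eif5a has 5 listed starts under its peak, and the stretch shown, before the most upstream of them, held a GC box 83 bases before the start. The Socs1 stretch held overlapping IRF matches, which start 83 and 77 bases before the start, and GC boxes 46 and 11 bases before it.

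Il17a encodes the defining Th17 cytokine, and the peak over its start (chr1:20730661-20731781) held 11.1, 8.95 and 6.49 CPM with DFMO, against 24.5, 24.4 and 18 CPM with vehicle (log2 change -1.28 ± 0.36, SE; adjusted p = 0.0193). CPM are counts scaled to a library total of 1000000 after TMM scaling. Every DFMO library lay below every vehicle library, and edgeR's quasi-likelihood test with Benjamini-Hochberg adjustment gave the p. The call ended at Il17a (adjusted p = 0.0521 without DFMO library 2, 0.0782 without DFMO library 3, 0.117 without vehicle library 2). Kctd12, which encodes an auxiliary subunit of GABA-B receptors, had 58.2, 57.1 and 56.4 CPM with DFMO, against 116, 85.1 and 79.3 CPM with vehicle in its peak, which also covers Mir5130 (log2 change -0.66 ± 0.15, SE; adjusted p = 0.00342), again with no overlap. Eif5a, which encodes the protein that carries hypusine, had 190.3, 172 and 199 CPM with DFMO, against 110.4, 137 and 116 CPM with vehicle (log2 change 0.61 ± 0.11, SE; adjusted p = 0.00023). Socs1 encodes a feedback inhibitor of cytokine receptor signalling, and its peak held 344, 318 and 348 CPM with DFMO, against 224, 256 and 201 CPM with vehicle (log2 change 0.56 ± 0.10, SE; adjusted p = 0.000103). At both of these starts every DFMO library lay above every vehicle library.

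Depth was uneven. Total counts were 3077794, 2311124 and 1535786 in the Th17n DFMO libraries and 1020937, 6496550 and 3405449 in the Th17n vehicle libraries (animals 1, 2 and 3), and in vehicle library 1 a share of 37.4% of tested peaks held under 10 counts. Replicates correlated at 0.883 to 0.954 (log CPM), and DFMO against vehicle libraries at 0.786 to 0.891. The Th17n label was set against marker genes. The summed accessibility of the 6 peaks at Il17a was 79.8 to 111 CPM in Th17n DFMO and 141 to 156 CPM in Th17n vehicle, against 22.8 to 44.5 CPM in iTreg DFMO and 36.0 to 53.4 CPM in iTreg vehicle. That of the 6 peaks at Il17f was 79.8 to 91.4 CPM in Th17n DFMO and 124 to 139 CPM in Th17n vehicle, against 16.6 to 22.3 CPM in iTreg DFMO and 18.2 to 33.2 CPM in iTreg vehicle. Summed over all 6 Th17 markers it was 482 to 556 CPM in Th17n DFMO and 647 to 668 CPM in Th17n vehicle. In iTreg DFMO and vehicle that sum was 194 to 280 and 292 to 365 CPM. Not every marker followed the label. Ccr6 had 66.4 to 70.7 CPM in Th17n DFMO, below the 74.6 to 96.6 CPM of iTreg vehicle. The single Foxp3 peak had 12.3 to 20.8 CPM in Th17n vehicle, against 2.07 to 6.65 CPM in iTreg vehicle. The other cell types looked for were B cells, CD8 T and NK cells, myeloid cells and erythroid cells. Of the B cell markers Ms4a1, Cd79a and Cd79b had no peak, and nor had Cd8a, Ncr1 or Gata1. Others had peaks, among them Ebf1 with 18, Pax5 with 3, Gzmb with 6, Eomes with 5 and Klf1 with 1. Ebf1 held 185 to 208 CPM in Th17n DFMO and 193 to 230 CPM in Th17n vehicle. In iTreg it held 75.9 to 92.9 CPM with DFMO and 91.2 to 119 CPM with vehicle. Summed marker accessibility in Th17n overlapped between DFMO and vehicle for each of these lists. For the B cell list it was 223 to 235 CPM with DFMO, against 212 to 249 CPM with vehicle. For the myeloid list it was 80.1 to 106 CPM with DFMO, against 87.8 to 111 CPM with vehicle. The CD8 T and NK list had 201 to 229 CPM with DFMO, against 199 to 247 CPM with vehicle. The erythroid list had 49.4 to 72.6 CPM with DFMO, against 55.2 to 68.2 CPM with vehicle. These are bulk libraries, in which fewer open cells and less opening per cell cannot be told apart.

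With DFMO, accessibility rose at 1968 peaks and fell at 1873, 4.5% and 4.28% of the peaks tested and 8.78% in all (edgeR, adjusted p under 0.05). An unadjusted p under 0.05 was found at 10138 peaks. Many changes were large: the median log2 change was 1.14 among gains and -1.26 among losses, beside 0.01 over all tested peaks, and 316 gains and 270 losses reached 4-fold. In 1932 of the gains and 1858 of the losses, each animal's DFMO library moved the same way relative to its own vehicle library. The calls were made from these same libraries, so this is not independent support. Of the 39885 peaks that did not pass, 7993 were lower with DFMO in all 3 animals. The groups did not overlap at 94.9% of gains and 97.4% of losses, so a remark of no overlap adds little at a called peak. The count of gains depended on every library: it was 748, 1102 and 1080 without DFMO library 1, 2 or 3, and 1166, 869 and 728 without vehicle library 1, 2 or 3. Losses numbered 1022 and 1219 without DFMO library 1 or 3, and 950 and 909 without vehicle library 2 or 3. Thinning all libraries to the shallowest left 844 gains and 878 losses.

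**Figure D1:**
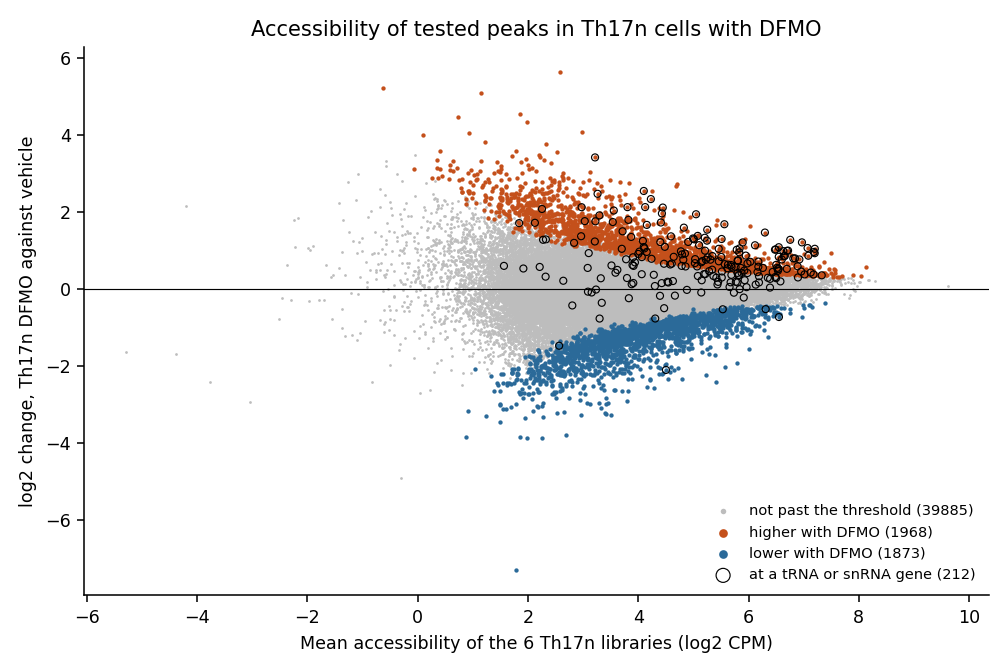
Each point is a tested peak, by its mean accessibility in the 6 Th17n libraries (x axis, log2 CPM) and its log2 change with DFMO against vehicle (y axis). The 1968 gains and 1873 losses are coloured, and the 212 circled peaks, within 500 bp of a tRNA or snRNA gene, lie mostly above 0.

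The gains and losses lay in different places. Gene models, their ends and listed starts in this paragraph are those of protein-coding genes. Peaks within 1 kb of either end of a gene model made up 26.5% of gains, 12.8% of losses and 27.5% of the peaks that did not pass, while peaks inside gene models made up 37.4%, 54.1% and 41.5% of them. A gene start listed by RefSeq lay inside 20.2% of gains, 7.96% of losses and 20.1% of the others, so of 8581 peaks over a listed start 398 rose and 149 fell. The share of all counts that fell at gene ends was 48.6%, 47.2% and 48.9% in the DFMO libraries, against 46.4%, 46.2% and 45.4% in the vehicle libraries. Every DFMO library lay above every vehicle library in this share, and its part in the gene-end results was not tested.

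Changed peaks that were neighbours tended to move together. Of 79 pairs of adjacent changed peaks up to 2 kb apart, 72 (91.1%) had the same direction, and so had 213 of 242 pairs 2 to 10 kb apart (88.0%). At 10 to 50 kb the count was 455 of 623 (73.0%), and at 50 to 500 kb it was 1012 of 1768 (57.2%). Of 14139 genes with a tested peak nearest to them, 2748 had at least 1 changed peak and 191 had both gains and losses. Peaks were given to the nearest protein-coding gene within 100000 bp, which is not evidence that they act on it.

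Accessibility rose at most tested peaks beside tRNA genes and fell at none. Of 155 tested peaks within 500 bp of a tRNA gene, 89 rose (57.4%) and none fell, with a median log2 change of 0.69. Of all tested peaks 4.5% rose and 4.28% fell. All 3 DFMO libraries lay above all 3 vehicle libraries at 113 of the 155 (72.9%), a pattern found at 14.6% of all tested peaks. Summed over the 157 tRNA peaks of the table, accessibility was 8085, 7711 and 8070 CPM in the DFMO libraries, against 4677, 5311 and 5037 CPM in the vehicle libraries, a ratio of means of 1.59. The groups did not overlap, and the exact two-sided permutation test gave p = 0.1, the smallest that 3 against 3 libraries allow. The same sum was 8308, 9681 and 8974 CPM in iTreg DFMO libraries and 7365, 7525 and 7168 CPM in iTreg vehicle libraries, so the Th17n vehicle libraries were the lowest of the 12. The number of tRNA gains was 51 without DFMO library 1 and 53 without vehicle library 3, and 61 to 68 without any other Th17n library.

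Gains were found at tRNA genes of every amino acid. RefSeq's tRNA names give the amino acid, and all 20 amino acids had at least 1 risen peak among their genes. The median log2 change per amino acid was above 0 for all 20, between 0.39 for lysine and 1.77 for phenylalanine, which had 3 tested peaks. Arginine tRNA genes had 11 gains in 14 peaks and isoleucine tRNA genes 9 in 11. On chromosome 13, where tRNA genes are clustered, 36 of 48 peaks rose, and elsewhere 53 of 107 did. Of tRNA peaks farther than 1 kb from the end of a protein-coding gene model 72 of 119 rose, and of those within 1 kb 17 of 36. Near-identical tRNA and snRNA genes can share reads, and how the authors' counting treated them is not stated, so values of single genes of these kinds are uncertain.

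Examples show the size of these gains in single peaks. At n-TRcct5, an arginine tRNA gene near Mrpl58 (chr11:115412420-115414041), accessibility was 214, 179 and 206 CPM with DFMO, against 81.2, 103 and 99.3 CPM with vehicle (log2 change 1.05 ± 0.11, SE; adjusted p = 1.78e-08). Near n-TIaat5, an isoleucine tRNA gene by Ctc1 (chr11:69037032-69037954), it was 68, 73.7 and 75.3 CPM with DFMO, against 20.8, 22.4 and 23.2 CPM with vehicle (log2 change 1.69 ± 0.19, SE; adjusted p = 2.41e-08). The n-TFgaa6 peak by Osbp (chr19:12002169-12002570), at a phenylalanine tRNA gene, held 53.4, 48.1 and 54.5 CPM with DFMO, against 16, 11.7 and 14.6 CPM with vehicle (log2 change 1.94 ± 0.22, SE; adjusted p = 5.43e-08). No DFMO value in these peaks came near a vehicle value. Zfp184, a zinc finger gene on chromosome 13, had 6 of its 7 tested peaks risen and all 6 lay at tRNA genes, and Trim27 had 5 of 8 and Btn1a1 4 of 5 of the same kind. Without 1 library Trim27 kept 1 to 4 calls (1 without DFMO library 3, 2 without DFMO library 1 or vehicle library 1 or 2, 3 without vehicle library 3) and Btn1a1 1 without vehicle library 3 and 2 without any other.

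The Mir1983 locus shows what such a region contains. RefSeq lists a microRNA hairpin there that overlaps the isoleucine tRNA gene n-TItat14. The hairpin is shown because its peak had the greatest fold change of the named tRNA peaks, with the mature miR-1983 in capitals.
Mir1983 hairpin, chr13:21896918-21897049, minus strand: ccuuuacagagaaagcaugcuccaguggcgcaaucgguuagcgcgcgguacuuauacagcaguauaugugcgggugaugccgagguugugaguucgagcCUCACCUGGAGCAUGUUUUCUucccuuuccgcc
Accessibility of the peak (chr13:21896723-21897117) was 15.3, 14.1 and 22.1 CPM with DFMO, against 0.944, 1.37 and 2 CPM with vehicle (log2 change 3.42 ± 0.44, SE; adjusted p = 7.42e-07). The vehicle values were close to nothing, and every DFMO library stood clear of them. In iTreg cells the same peak had a log2 change of 1.63 (adjusted p = 0.00292).

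Peaks beside genes that RefSeq classes as small nuclear RNAs also rose more often than they fell. The class holds the RNA parts of the splicing machinery and U3, which acts in the nucleolus on ribosomal RNA. Of 57 tested peaks within 500 bp of an snRNA gene 32 rose and 4 fell (56.1% and 7.02%, against 4.5% and 4.28% of all tested peaks, median log2 change 0.59). Of the 35 that overlapped the gene itself 30 rose and 1 fell (85.7% and 2.86%). Summed accessibility was 4468, 3916 and 4068 CPM with DFMO, against 2679, 2838 and 2637 CPM with vehicle, with no overlap (exact permutation p = 0.1, the smallest possible). At Rnu5g, a U5 snRNA gene (chr9:65200722-65202163), accessibility was 190.0, 189.6 and 171 CPM with DFMO, against 67, 95.8 and 92.4 CPM with vehicle (log2 change 1.07 ± 0.14, SE; adjusted p = 1.15e-06). Rnu1a1, a U1 gene inside Tex14 (chr11:87422572-87423632), had 126, 104 and 129.8 CPM with DFMO, against 67, 54.2 and 58.7 CPM with vehicle (log2 change 1.03 ± 0.14, SE; adjusted p = 1.93e-06). All 6 risen peaks of the 11 at Tex14 were beside genes of this class, 4 of them at U3 genes. The peak at Rn7sk, whose RNA restrains transcription elongation, had a log2 change of 0.17 (adjusted p = 0.488).

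Small nucleolar RNA genes, which act in the modification and processing of ribosomal RNA, had 6 gains and 5 losses in 64 tested peaks (9.38% and 7.81%, against 4.5% and 4.28% of all tested peaks). Without DFMO library 1 they had 1 gain and 3 losses, without vehicle library 1 they had 3 and 3, without vehicle library 3 they had 2 and 2, and without any other library 2 gains and 3 or 4 losses. Snord118, the U8 snoRNA gene in the Tmem107 end (chr11:69073144-69074023), rose with 87.8, 69.4 and 55.8 CPM with DFMO, against 31.1, 31.4 and 30.6 CPM with vehicle (log2 change 1.22 ± 0.18, SE; adjusted p = 1.06e-05). MicroRNA genes had 12 gains and 5 losses in 134 tested peaks (8.96% and 3.73%). Their summed accessibility was 5915 ± 91.9 CPM with DFMO and 5487 ± 116 CPM with vehicle (SD, n = 3 each), a ratio of 1.08. That of the snoRNA gene peaks was 2116 ± 106 CPM with DFMO and 1839 ± 27.2 CPM with vehicle, a ratio of 1.15. In both sums the groups did not overlap, as at tRNA and snRNA genes, and the exact permutation test gave the same p = 0.1. Gains at microRNA genes numbered 2 without DFMO library 1 or vehicle library 3, 3 without vehicle library 1, and 5 to 7 without any other. Of all 43726 tested peaks 212 were within 500 bp of tRNA or snRNA genes, and among the 1968 gains 121 were. Among the 100 gains with the smallest p the number was 39, and among the 100 losses with the smallest p it was 2.

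**Figure D2:**
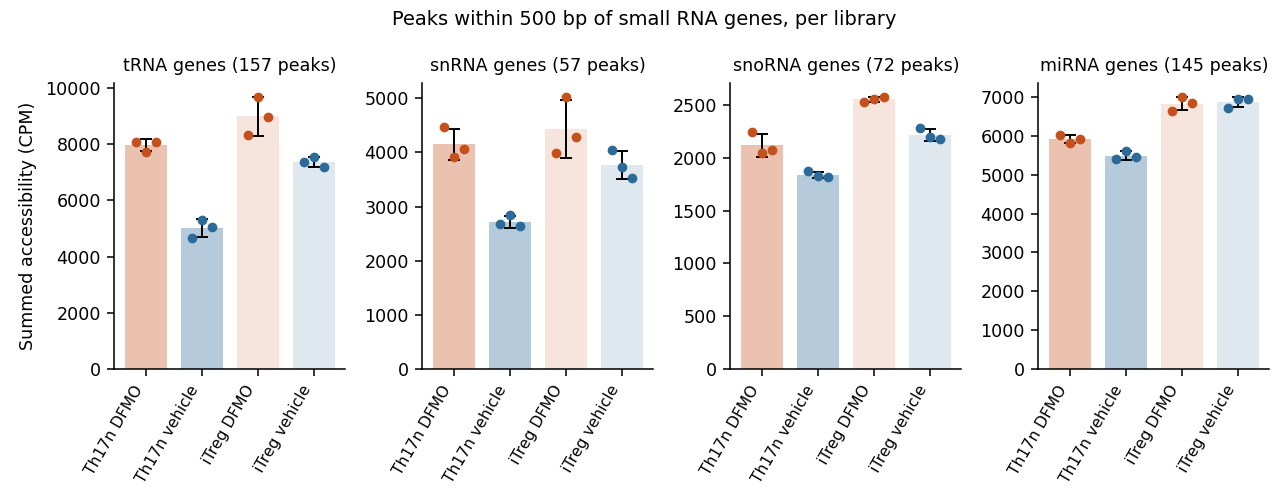
Summed accessibility (y axis, CPM) of peaks within 500 bp of tRNA, snRNA, snoRNA and microRNA genes, with bars for the mean, error bars for the SD and points for the 3 libraries of each group. In the tRNA panel Th17n DFMO libraries lie at 7711 to 8085 CPM and Th17n vehicle libraries at 4677 to 5311 CPM.

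The mature microRNAs of the changed peaks whose products are best known are shown as RefSeq gives them with GRCm38.p6, with their seed, bases 2 to 8, in capitals. miR-155 promotes T cell activation and Th17 responses in mice, miR-210 is induced by hypoxia, and lies by Rassf7, and miR-484 lies by the start of Marf1.
miR-155-5p, chr16:84714143-84714165, plus strand: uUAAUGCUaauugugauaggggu
miR-210-3p, chr7:141221407-141221428, minus strand: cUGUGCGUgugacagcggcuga
miR-484, chr16:14159630-14159651, plus strand: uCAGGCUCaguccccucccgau
No seed was shared among them. The Mir155 peak (chr16:84712911-84713764), which lies 376 bp before the hairpin and was picked after its values were seen, held 77.4, 62.2 and 64.2 CPM with DFMO, against 42.5, 45.4 and 48.6 CPM with vehicle (log2 change 0.57 ± 0.16, SE; adjusted p = 0.0167). Mir210 had 86.9, 70.3 and 52.5 CPM with DFMO, against 124, 113 and 98.7 CPM with vehicle (log2 change -0.63 ± 0.17, SE; adjusted p = 0.0115) and Mir484 had 51.4, 49 and 43.5 CPM with DFMO, against 38.7, 27.6 and 26.3 CPM with vehicle (log2 change 0.72 ± 0.18, SE; adjusted p = 0.00837). The groups did not overlap at any of them. The Mir155 call ended after thinning (adjusted p = 0.256), without DFMO library 1 (0.217) and without vehicle library 1 (0.078), 2 (0.113) or 3 (0.0724). In some fits the call was lost at Rassf7 (adjusted p = 0.125 with DESeq2, 0.0828 without DFMO library 3) and Marf1 (adjusted p = 0.27 after thinning, 0.0832 without DFMO library 1, 0.096 without vehicle library 2, 0.102 without vehicle library 3).

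Of 122 tested peaks nearest to genes of cytosolic ribosomal proteins, 18 rose, at 16 of the 73 genes with a tested peak, and none fell. The others did not pass. Gains thus made up 14.8%, against 4.5% of all tested peaks, and the median log2 change was 0.21. At the ends of these genes 64 of 70 peaks had a log2 change above 0, against 7073 of 11728 at all gene ends (91.4% and 60.3%). The median change at those ends was 0.25, against 0.08 at all gene ends. Rps14 (chr18:60774177-60775007) had 51.7, 58.4 and 64.2 CPM with DFMO, against 27.4, 34 and 33.5 CPM with vehicle (log2 change 0.82 ± 0.16, SE; adjusted p = 0.000744). The peak 556 bp beyond Rpl3 (chr15:80075748-80077225) had 119, 87.8 and 86.9 CPM with DFMO, against 34, 32.7 and 28.9 CPM with vehicle (log2 change 1.65 ± 0.17, SE; adjusted p = 9.6e-09) and Rps19, with 3 of 3 peaks risen, had 123, 100.1 and 96.7 CPM with DFMO, against 75.5, 73.9 and 71.3 CPM with vehicle at its most significant (log2 change 0.55 ± 0.13, SE; adjusted p = 0.00448). No library of the DFMO group overlapped the vehicle group at these genes. The list's gains numbered 5 to 10 with any 1 of the 6 libraries left out (5 without DFMO library 1 or vehicle library 3, 6 without vehicle library 2, 9 without DFMO library 2 or 3, 10 without vehicle library 1) and 7 after thinning. Rps19 kept 1 gain without DFMO library 1 or 2 or vehicle library 3. The threshold was missed in other fits at Rps19 (adjusted p = 0.0653 after thinning, 0.141 without DFMO library 1, 0.0626 without vehicle library 3).

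Other genes of protein synthesis had smaller shares of gains. Mitochondrial ribosomal protein genes had 10 gains and 3 losses in 133 peaks (7.52% and 2.26%, median 0.10), and genes of translation initiation and elongation 8 and 3 in 131 (6.11% and 2.29%, median 0.19), against 4.5% and 4.28% of all tested peaks. Of the 10 mitochondrial gains 3 were at gene ends, and 2 are the n-TRcct5 peak assigned to Mrpl58 and the Mir155 peak assigned to Mrpl39. Aminoacyl-tRNA synthetase genes, which charge tRNAs, had 1 gain and no loss in 32 peaks (3.13% gains, median 0.15). With 1 library left out, gains numbered 4 to 8 for mitochondrial ribosomal protein genes (4 without DFMO library 1, 5 without any 1 vehicle library, 6 without DFMO library 3), 1 to 5 for initiation and elongation genes (1 without DFMO library 1 or vehicle library 3, 2 without DFMO library 2 or vehicle library 2, 3 without DFMO library 3) and 0 for synthetase genes. Mrpl33 (chr5:31595871-31597203) had 84.6, 88.2 and 86.9 CPM with DFMO, against 36.8, 32.3 and 37.5 CPM with vehicle at a peak 16748 bp away (log2 change 1.30 ± 0.19, SE; adjusted p = 9.65e-06). Inside Mrps28 (chr3:8866283-8866765) accessibility was 0.325, 1.7 and 0.649 CPM with DFMO, against 6.61, 11.7 and 17.7 CPM with vehicle (log2 change -3.80 ± 0.64, SE; adjusted p = 9.15e-05), while in iTreg cells the log2 change was 1.37 (adjusted p = 0.279). A peak 85868 bp from Eif4e, the cap-binding factor (chr3:138645564-138645824), fell to 1.95, 0.426 and 0 CPM with DFMO, against 11.3, 5.64 and 9.16 CPM with vehicle (log2 change -3.04 ± 0.72, SE; adjusted p = 0.0049). The DFMO values at the Mrps28 and Eif4e peaks are at or near 0, so the size of these fitted folds is uncertain.

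The RNA polymerase III machinery itself had 4 gains and 5 losses in 43 peaks (9.3% and 11.6%, against 4.5% and 4.28% of all tested peaks, median 0.13). Gtf3c2, a subunit of the factor TFIIIC that binds tRNA promoters (chr5:31179320-31180546), rose with 88.5, 86.5 and 87.6 CPM with DFMO, against 57.6, 59.1 and 49.8 CPM with vehicle (log2 change 0.66 ± 0.14, SE; adjusted p = 0.00123). Snapc5, a subunit of the complex that starts snRNA transcription (chr9:64178791-64179783), rose with 72.2, 71.6 and 73.3 CPM with DFMO, against 37.7, 51.2 and 37.5 CPM with vehicle (log2 change 0.73 ± 0.16, SE; adjusted p = 0.00181). Of the losses 3 lay among the 6 peaks at Polr3b, the second-largest polymerase III subunit, the strongest (chr10:84718824-84719182) with 0.651, 2.13 and 0.649 CPM with DFMO, against 15.1, 9.6 and 9.73 CPM with vehicle (log2 change -3.21 ± 0.62, SE; adjusted p = 0.000554). The DFMO values at that Polr3b peak are near 0, so the size of its fitted fold is uncertain. All 4 gains of this list and 1 of its 5 losses were at gene ends, and 1 gain, at Polr3e, was beside a tRNA gene. Gains numbered 2 without vehicle library 3, and losses 3 without DFMO library 1 or vehicle library 2. The call ended at Gtf3c2 (adjusted p = 0.0754 after thinning) and Snapc5 (adjusted p = 0.0567 without vehicle library 3).

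Genes of glycolysis and the hypoxia response had 13 losses, at 10 genes, and 2 gains in 103 peaks (12.6% and 1.94%, against 4.28% and 4.5% of all tested peaks, median -0.18). Respiratory chain genes had 7 gains and 1 loss in 119 peaks (5.88% and 0.84%, median 0.16) and proteasome genes 6 and 2 in 72 (8.33% and 2.78%, median 0.17), so the share of gains at respiratory chain genes was near that of all tested peaks. Egln3, an oxygen-sensing prolyl hydroxylase that hypoxia induces, lost 3 of its 13 peaks, the strongest (chr12:54176530-54178319) with 29.9, 22.2 and 25.9 CPM with DFMO, against 66.1, 68.8 and 77.3 CPM with vehicle (log2 change -1.44 ± 0.23, SE; adjusted p = 4.26e-05). Hk2, which commits glucose to glycolysis, had 17.2, 11.9 and 24 CPM with DFMO, against 36.8, 41.4 and 34.6 CPM with vehicle inside the gene (chr6:82744468-82745114; log2 change -1.14 ± 0.22, SE; adjusted p = 0.000542). At Psma6, a proteasome subunit gene (chr12:55392950-55393563), the peak rose with 45.2, 59.2 and 43.5 CPM with DFMO, against 17, 20.0 and 17.5 CPM with vehicle (log2 change 1.42 ± 0.22, SE; adjusted p = 2.35e-05). The losses of the glycolysis list were 8 after thinning and 9 to 12 with 1 library left out. The respiratory chain's gains fell to 2 or fewer with any 1 library left out, and the proteasome's to 1 without DFMO library 1 or vehicle library 1 or 3, 2 without DFMO library 2 and 3 without vehicle library 2. In some fits the call was lost at Hk2 (adjusted p = 0.0904 after thinning).

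Among genes of polyamine metabolism few peaks changed: 1 rose and 2 fell of 41 (2.44% and 4.88%, against 4.5% and 4.28% of all tested peaks, median 0.02, and -0.01 with RLE scaling). Both losses lay in Smox, which encodes spermine oxidase, an enzyme that breaks spermine down. The stronger (chr2:131504424-131505635) had 11.4, 17.5 and 17.5 CPM with DFMO, against 48.1, 41.7 and 42.4 CPM with vehicle (log2 change -1.52 ± 0.30, SE; adjusted p = 0.000676), with groups far apart, and 1 of the 2 calls was lost without DFMO library 2 or vehicle library 2. Srm, which encodes spermidine synthase, had the gain (chr4:148590789-148592171) with 96, 97.1 and 104 CPM with DFMO, against 66.1, 74.5 and 63.2 CPM with vehicle (log2 change 0.53 ± 0.13, SE; adjusted p = 0.00752). At the end of Odc1, the gene of DFMO's target, accessibility was 88.5, 85.2 and 95.4 CPM with DFMO, against 83, 80.3 and 99 CPM with vehicle (log2 change 0.03 ± 0.13, SE; adjusted p = 0.931), and the groups overlapped. Of the 4 hypusine pathway peaks the Eif5a start alone rose. In the arginine and methionine supply list, of transporters and enzymes, Slc7a5, Mat2a and Mat2b had gains and Mthfd2 a loss, in 53 peaks (5.66% and 1.89%). The share of gains was near the 4.5% of all tested peaks, and the list's gains numbered 0 or 1 with any 1 library left out. Slc7a5, a large neutral amino acid transporter (chr8:121906581-121908235), had 99.6, 79.7 and 112 CPM with DFMO, against 64.2, 60.9 and 75.3 CPM with vehicle (log2 change 0.53 ± 0.14, SE; adjusted p = 0.0103). The threshold was missed in other fits at Srm (adjusted p = 0.0512 without DFMO library 1, 0.0578 without DFMO library 3, 0.117 without vehicle library 3) and Slc7a5 (adjusted p = 0.101 without DFMO library 1, 0.119 without DFMO library 3, 0.0581 without vehicle library 1, 0.15 without vehicle library 2).

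At Th17 genes losses outnumbered gains. Th17 cytokine and receptor genes had 12 losses and 3 gains in 118 peaks (10.2% and 2.54%, median -0.21), and Th17 transcription factor genes 23 losses and 4 gains in 159 (14.5% and 2.52%, median -0.22), against 4.28% and 4.5% of all tested peaks. Losses of the first list numbered 7 without DFMO library 3 and 5 without vehicle library 2 or 3. Those of the second numbered 9 and 12 without DFMO library 1 or 3 and 11 and 13 without vehicle library 2 or 3. After thinning they numbered 6 and 11.

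Il17f, the partner of Il17a, had 34.2, 32.8 and 32.4 CPM with DFMO, against 72.7, 57.9 and 71.3 CPM with vehicle at a peak 16867 bp away (chr1:20759610-20760279; log2 change -1.0 ± 0.21, SE; adjusted p = 0.00155). Tgfbr2, a receptor for TGF-beta, had 11.7, 10.7 and 11 CPM with DFMO, against 42.5, 26.8 and 30.0 CPM with vehicle at its end (chr9:116087258-116087593; log2 change -1.51 ± 0.32, SE; adjusted p = 0.00157). Il6ra, the IL-6 receptor gene, lost 3 of 12 peaks and Ccr6, a chemokine receptor of Th17 cells, lost 2. Without vehicle library 3 these losses numbered 1 and 0, and Ccr6 had 1 without DFMO library 1 or 3 and 0 without vehicle library 2. Peaks of several other Th17 genes did not pass. The Maf end had 147, 121 and 130.4 CPM with DFMO, against 85.9, 111 and 108 CPM with vehicle (log2 change 0.36 ± 0.13, SE; adjusted p = 0.0805) and a peak inside Il23r 40.7, 49 and 29.8 CPM with DFMO, against 18.9, 29.2 and 28 CPM with vehicle (log2 change 0.61 ± 0.27, SE; adjusted p = 0.154). Il10, the anti-inflammatory cytokine gene, had 45.2, 39.6 and 35.7 CPM with DFMO, against 31.1, 27.4 and 26 CPM with vehicle at a peak 13083 bp away (log2 change 0.55 ± 0.20, SE; adjusted p = 0.0793). The DFMO libraries lay above the vehicle libraries at these Maf, Il23r and Il10 peaks, at Il23r by 29.8 against 29.2 CPM. That pattern was found at 14.6% of all tested peaks, and the adjusted p missed the threshold at all 3.

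Among the transcription factors Fosl2, Satb1 and Rora each lost 4 peaks, of 8, 18 and 32, and Hif1a lost 3 of 10. The Rora losses numbered 0 to 2 with any 1 library left out, the Satb1 losses 2 without DFMO library 1, and the Hif1a losses 1 without DFMO library 1 or vehicle library 2 or 3. Fosl2 encodes an AP-1 protein that restrains plasticity in Th17 cells, and inside it (chr5:32154977-32155801) accessibility was 6.51, 7.24 and 10.4 CPM with DFMO, against 36.8, 31.5 and 38.6 CPM with vehicle (log2 change -2.18 ± 0.35, SE; adjusted p = 3.53e-05). Satb1, a chromatin organiser, had 8.13, 9.37 and 2.59 CPM with DFMO, against 38.7, 23.5 and 28.6 CPM with vehicle at a peak 70592 bp away (chr17:51903882-51904231; log2 change -2.03 ± 0.35, SE; adjusted p = 0.000117). Stat3, which carries the IL-6 signal, moved both ways with 1 gain and 2 losses in 9 peaks, and its gain (chr11:100931421-100932009) had 15, 20.9 and 27.2 CPM with DFMO, against 6.61, 6.55 and 5.15 CPM with vehicle (log2 change 1.74 ± 0.29, SE; adjusted p = 5.62e-05). Ahr encodes the aryl hydrocarbon receptor, and a peak 27846 bp from it (chr12:35562835-35563334) rose with 31.2, 27.7 and 32.4 CPM with DFMO, against 11.3, 14.8 and 11.4 CPM with vehicle (log2 change 1.22 ± 0.24, SE; adjusted p = 0.000644). At the ends of Stat3 and Ahr the log2 changes were 0.23 (adjusted p = 0.188) and -0.16 (adjusted p = 0.657).

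**Figure D3:**
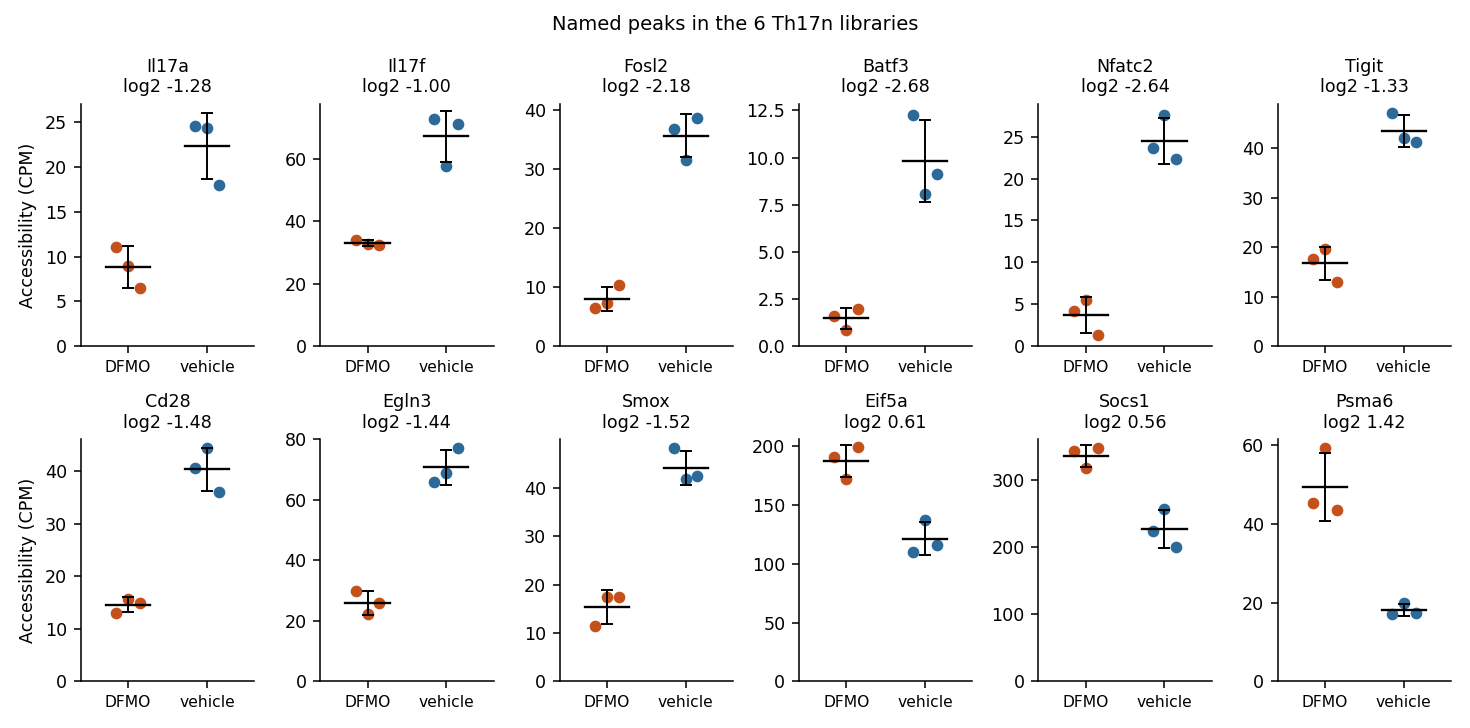
Accessibility (y axis, CPM) of 12 named peaks in the 3 DFMO and 3 vehicle libraries of Th17n cells, with lines for the mean and error bars for the SD. At all 12 the points of the groups are apart, lower with DFMO at the first 9 and higher at Eif5a, Socs1 and Psma6.

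Losses also outnumbered gains at receptors that adjust T cell activation. TNF receptor co-stimulation genes had 13 losses and 2 gains in 84 peaks (15.5% and 2.38%, median -0.22), and the CD28 family and inhibitory receptors 13 losses and 2 gains in 125 (10.4% and 1.6%, median -0.18). Among all tested peaks 4.28% fell and 4.5% rose. Tnfrsf8, which encodes CD30, lost 4 of 16 peaks, and Tnfrsf9, which encodes 4-1BB, lost 4 of 7. The strongest Tnfrsf9 loss inside the gene (chr4:150924135-150925264) had 25.4, 26.8 and 10.4 CPM with DFMO, against 40.6, 54.5 and 43.5 CPM with vehicle (log2 change -1.11 ± 0.24, SE; adjusted p = 0.00155). Cd28, the main co-stimulatory receptor, lost 3 of 15 peaks, with 13, 15.8 and 14.9 CPM with DFMO, against 40.6, 44.3 and 36.1 CPM with vehicle at the strongest (chr1:60765048-60766105; log2 change -1.48 ± 0.27, SE; adjusted p = 0.000331). Tigit, an inhibitory receptor, had 17.6, 19.6 and 13 CPM with DFMO, against 47.2, 42 and 41.2 CPM with vehicle at a peak 33623 bp away (chr16:43698748-43699624; log2 change -1.33 ± 0.21, SE; adjusted p = 2.44e-05). Groups did not overlap at any of these peaks. The co-stimulation losses numbered 10 to 12 with 1 library left out, and those of the CD28 family 8 without vehicle library 2 or 3 and 5 after thinning. Tnfrsf8 had 2 losses without DFMO library 1 or 2, Tnfrsf9 2 without DFMO library 1 or vehicle library 2, and Cd28 1 without DFMO library 1.

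Beside Tnfrsf18, which encodes GITR, 3 neighbouring peaks on chromosome 4 fell. The peak at chr4:156030655-156031480 held 26.7, 17.9 and 24 CPM with DFMO, against 94.4, 87.6 and 81.3 CPM with vehicle (log2 change -1.92 ± 0.19, SE; adjusted p = 1.55e-09), and the next, assigned to Ttll10 (chr4:156031544-156032357), held 28.3, 26 and 20.1 CPM with DFMO, against 63.2, 73 and 76.7 CPM with vehicle (log2 change -1.51 ± 0.19, SE; adjusted p = 8.75e-07). Another, 3482 bp from the gene (chr4:156021507-156022840), held 79.7, 61.4 and 71.4 CPM with DFMO, against 110.4, 125 and 114 CPM with vehicle (log2 change -0.73 ± 0.13, SE; adjusted p = 0.000134). In iTreg cells the log2 changes of the 3 peaks were -1.23, -1.48 and -0.34. Of the regulatory T cell genes 14 peaks fell and 8 rose in 116 (12.1% and 6.9%, against 4.28% and 4.5% of all tested peaks, median -0.14). Il2ra, the IL-2 receptor alpha chain, had 3 of each in 15. With any 1 library left out, Il2ra had 1 or 2 gains and 0 to 3 losses (0 without vehicle library 3, 1 without DFMO library 2 or 3 or vehicle library 2). The single Foxp3 peak (chrX:7593219-7593658) had 7.16, 6.39 and 2.59 CPM with DFMO, against 20.8, 14 and 12.3 CPM with vehicle (log2 change -1.39 ± 0.40, SE; adjusted p = 0.0216). The regulatory T cell gains numbered 2 without DFMO library 1 or vehicle library 2, 3 without vehicle library 3 and 5 without any other library, and the losses 9 without DFMO library 3, 6 without vehicle library 3 and 7 after thinning. The call ended at Foxp3 (adjusted p = 0.0585 after thinning, 0.0992 without DFMO library 3, 0.0605 without vehicle library 1, 0.0602 without vehicle library 2).

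Genes of T cell receptor signalling had 18 losses and 5 gains in 219 peaks (8.22% and 2.28%, against 4.28% and 4.5% of all tested peaks, median -0.10). Cblb, a ubiquitin ligase that restrains T cell activation, lost 5 of 16 peaks, a count that was 3 without DFMO library 1 or 2 and 2 without DFMO library 3 or vehicle library 3. Ptpn6, which encodes the phosphatase SHP-1, had 28, 25.1 and 27.2 CPM with DFMO, against 56.6, 67.6 and 44.6 CPM with vehicle (chr6:124732367-124733423; log2 change -1.08 ± 0.19, SE; adjusted p = 0.000134). NFAT, NR4A, EGR and TOX factor genes, which answer calcium and T cell receptor signals, had 8 gains and 5 losses in 94 peaks (8.51% and 5.32%, median -0.08). Nfatc2 alone had 3 of those losses, the strongest (chr2:168500816-168501321) with 4.23, 5.54 and 1.3 CPM with DFMO, against 23.6, 27.6 and 22.3 CPM with vehicle (log2 change -2.64 ± 0.41, SE; adjusted p = 2.47e-05), and Tox2 had 2 gains, the stronger (chr2:163166362-163166729) with 16.9, 15.8 and 11.7 CPM with DFMO, against 2.83, 3.5 and 5.15 CPM with vehicle (log2 change 1.90 ± 0.40, SE; adjusted p = 0.00146). The losses of the T cell receptor list numbered 9 without DFMO library 1 or 3, 11 without DFMO library 2 and 7 without vehicle library 3. The gains of the NFAT list numbered 2 without DFMO library 1 or vehicle library 3, 4 or 5 without any other, and 0 after thinning. Nfatc2 had 1 loss without DFMO library 1 or vehicle library 2, and Tox2 1 gain without DFMO library 1 or 2 or vehicle library 2 or 3.

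Losses outnumbered gains in 3 more lists of T cell transcription factors and identity genes. AP-1 factor genes had 9 losses and 2 gains in 67 peaks (13.4% and 2.99%, median -0.14), ETS and RUNX factor genes 17 losses and 1 gain in 157 (10.8% and 0.637%, median -0.18), and naive and memory T cell genes 23 losses and 4 gains in 253 (9.09% and 1.58%, median -0.18). Among all tested peaks 4.28% fell and 4.5% rose. Batf3, a partner of Jun proteins, had 1.63, 0.852 and 1.95 CPM with DFMO, against 12.3, 8.07 and 9.16 CPM with vehicle inside the gene (chr1:191104647-191104880; log2 change -2.68 ± 0.62, SE; adjusted p = 0.00364). Etv6, a repressor of the ETS family, lost 4 of 24 peaks, with 6.51, 4.69 and 3.24 CPM with DFMO, against 30.2, 16.8 and 22.6 CPM with vehicle at the strongest (chr6:134156305-134156688; log2 change -2.12 ± 0.38, SE; adjusted p = 0.000211). Bach2, a repressor that keeps T cells naive, had 4 losses and 2 gains in 50 peaks, the strongest loss (chr4:32318464-32318952) with 5.21, 4.69 and 3.89 CPM with DFMO, against 21.7, 21.6 and 21.2 CPM with vehicle (log2 change -2.19 ± 0.38, SE; adjusted p = 0.000148). In each of these the DFMO libraries lay wholly below the vehicle libraries.

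Fosl2 and Batf, which are in the Th17 factor list too, gave 6 of the 9 AP-1 losses, and Satb1 is in the Th17 and the naive list. The AP-1 losses numbered 4 without DFMO library 3 or vehicle library 3. Those at ETS and RUNX genes numbered 8 without DFMO library 1, 7 without vehicle library 2, 9 without vehicle library 3 and 11 after thinning. Those at naive and memory genes numbered 11 without DFMO library 1, 15 without vehicle library 2, 14 without vehicle library 3 and 15 after thinning. Batf kept its 2 losses without DFMO library 2 and had none without any other library, and Bach2 had 2 losses without DFMO library 1 or vehicle library 2 or 3. NF-kB factor and inhibitor genes had 7 losses and 4 gains in 84 peaks (8.33% and 4.76%, median -0.16), 5 of the losses and 2 of the gains at Nfkb1, where the strongest (chr3:135594132-135594556) had 10.1, 10.2 and 6.49 CPM with DFMO, against 24.5, 34.4 and 29.5 CPM with vehicle (log2 change -1.72 ± 0.28, SE; adjusted p = 4.4e-05). The NF-kB losses numbered 4 without DFMO library 1 or vehicle library 2 and 13 in a fit of the 6 Th17n libraries alone. Among all tested peaks 4.28% fell and 4.5% rose, so the NF-kB share of gains was near that of all peaks.

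The list of cytokine receptors and STAT feedback had 15 losses at 10 genes and 4 gains at Socs1, Socs2 and Cish in 129 peaks (11.6% and 3.1%, against 4.28% and 4.5% of all tested peaks, median -0.02). Of the losses 4 were at receptor genes, Il4ra and Il18r1, and the others at Smad3, Stat4, Stat5a, Stat5b, Stat6, Ski, Skil and Socs3. Il4ra, the IL-4 receptor gene, lost 3 of 11 peaks, and at its end (chr7:125577589-125578850) accessibility was 60.5, 40.9 and 42.2 CPM with DFMO, against 112, 103 and 132 CPM with vehicle (log2 change -1.25 ± 0.17, SE; adjusted p = 1.31e-06). Without vehicle library 3 it had 1 loss. Socs2, a relative of Socs1, had 148, 96.3 and 141 CPM with DFMO, against 72.7, 80.1 and 83.8 CPM with vehicle at its end (chr10:95415644-95417782; log2 change 0.69 ± 0.14, SE; adjusted p = 0.000927). The list's losses numbered 7 without DFMO library 1, 9 and 4 without vehicle library 2 or 3, and 5 after thinning. In some fits the call was lost at Socs2 (adjusted p = 0.0601 without DFMO library 1).

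Chromatin and DNA modifier genes had 16 losses and 6 gains in 185 peaks (8.65% and 3.24%, median -0.12), of which Zmiz1, a transcriptional coregulator, gave 6 losses. Ezh2, the histone methyltransferase of Polycomb, had 10.4, 8.95 and 7.78 CPM with DFMO, against 24.5, 23.2 and 37.5 CPM with vehicle inside the gene (chr6:47532489-47532989; log2 change -1.63 ± 0.32, SE; adjusted p = 0.000548). Dnmt1, the maintenance DNA methyltransferase, had 77.8, 57.5 and 83 CPM with DFMO, against 39.6, 46 and 34.1 CPM with vehicle (chr9:20952251-20953309; log2 change 0.84 ± 0.16, SE; adjusted p = 0.000547). Homing receptors had 7 losses and 3 gains in 70 peaks (10.0% and 4.29%, against 4.28% and 4.5% of all tested peaks). Genes of the ATF4 stress response had 5 losses and 2 gains in 43 (11.6% and 4.65%). Of these losses 4 were at Ddit4, which encodes an inhibitor of mTORC1 (2 without DFMO library 1). The shares of gains at homing and ATF4 genes were near that of all tested peaks. Sterol and fatty acid synthesis genes had 2 losses and 2 gains in 55 (3.64% each). Cell cycle genes had 2 gains and 1 loss in 108 peaks (1.85% and 0.926%), interferon response genes 1 and 1 in 42 (2.38% each), and Th1 and Th2 genes 1 gain and 2 losses in 54 (1.85% and 3.7%). In the last 3 of these lists the shares of gains and of losses were below those of all tested peaks. Losses at homing receptors numbered 3 without DFMO library 1 or 3, 4 without DFMO library 2 or vehicle library 3, and 2 without vehicle library 2. Elovl6, a fatty acid elongase, had 7.48, 10.2 and 6.49 CPM with DFMO, against 26.4, 27.6 and 33.5 CPM with vehicle at its fallen peak (chr3:129526064-129526701; log2 change -1.84 ± 0.32, SE; adjusted p = 0.000146). The gains at chromatin modifier genes numbered 1 to 4 with any 1 library left out, and the losses 10 without DFMO library 2, 7 and 8 without vehicle library 2 or 3, and 6 after thinning.

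**Figure D4:**
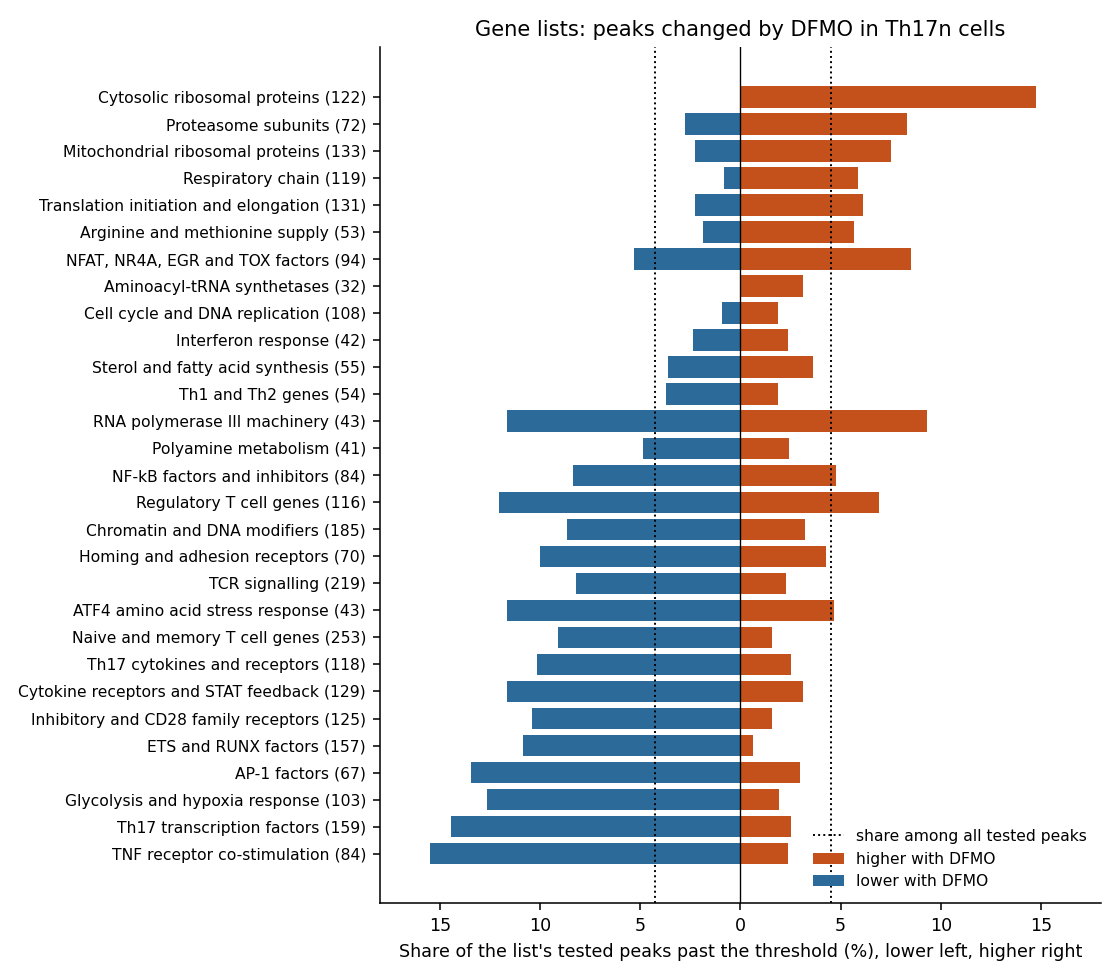
For the 29 gene lists with at least 20 tested peaks (number in brackets), the bars give the share of the list's tested peaks that rose (to the right) or fell (to the left) with DFMO, in percent. Dotted lines mark the shares among all 43726 tested peaks, 4.5% and 4.28%, and cytosolic ribosomal proteins stand at 14.8% higher and 0% lower.

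The 2 gains with the smallest p had no protein-coding gene within 100000 bp in the annotation used. Genes of other kinds were not searched over that distance. The peak at chr18:79297612-79298381 held 51.1, 42.2 and 41.5 CPM with DFMO, against 9.44, 7.77 and 4.29 CPM with vehicle (log2 change 2.73 ± 0.25, SE; adjusted p = 4.64e-10). The peak at chr15:5758523-5759218 held 53.7, 32.8 and 49.3 CPM with DFMO, against 2.83, 7.62 and 7.73 CPM with vehicle (log2 change 2.69 ± 0.28, SE; adjusted p = 7.66e-09). In both peaks every DFMO library lay far above every vehicle library. Their log2 changes in iTreg cells were 0.37 (adjusted p = 0.227) and -0.25 (adjusted p = 0.576), and the effects differed between the lineages by 2.37 ± 0.31 and 2.95 ± 0.37 (SE; adjusted p = 2.1e-05 and 8.2e-06, interaction contrast).

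Other large gains lay inside or far from genes. Inside Stx5a, a gene of vesicle transport to the Golgi (chr19:8747550-8748357), accessibility was 33.2, 40.0 and 27.2 CPM with DFMO, against 9.44, 7.77 and 7.15 CPM with vehicle (log2 change 2.10 ± 0.30, SE; adjusted p = 6.14e-06), and in iTreg cells the log2 change was 3.0. A peak 76142 bp from Mmrn1 (chr6:61065520-61066255) held 33.5, 46.9 and 40.2 CPM with DFMO, against 11.3, 8.53 and 10.3 CPM with vehicle (log2 change 2.06 ± 0.28, SE; adjusted p = 2.12e-06). All DFMO libraries were above all vehicle libraries in both peaks.

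Large losses included immune and metabolic genes. Slamf7, a receptor of activated lymphocytes, had 8.13, 11.1 and 11.7 CPM with DFMO, against 47.2, 41.9 and 37.5 CPM with vehicle inside the gene (chr1:171643574-171644044; log2 change -2.04 ± 0.28, SE; adjusted p = 1.97e-06). Ripor2, which encodes an inhibitor of the GTPase RhoA, had 19.5, 15.3 and 20.8 CPM with DFMO, against 58.5, 56.7 and 63 CPM with vehicle (chr13:24546845-24547705; log2 change -1.69 ± 0.23, SE; adjusted p = 1.79e-06). Papss1, which makes the sulfate donor PAPS, had 5.86, 14.1 and 7.14 CPM with DFMO, against 53.8, 34 and 51.2 CPM with vehicle (chr3:131618362-131618976; log2 change -2.33 ± 0.32, SE; adjusted p = 2.03e-06). Groups were wide apart in all 3 peaks. In iTreg cells the log2 changes of the 3 peaks were -0.44, 0.41 and 1.95, none of them past the threshold.

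Some genes had many changed peaks. Peaks of 1 gene share chromatin and are not replicates of each other. Rftn1, which encodes the lipid raft protein raftlin, lost 8 of 18 peaks over 196.8 kb (median log2 change -0.79), Zmiz1 6 of 30 (-0.49), Ppp2r2a, a regulatory subunit of phosphatase 2A, 5 of 9 (-0.96) and Runx2 5 of 23 (-0.46). None of the 4 had a gain. At Rftn1 the peak at chr17:50071534-50072259 held 15.3, 14.1 and 16.2 CPM with DFMO, against 32.1, 36.2 and 40.3 CPM with vehicle (log2 change -1.27 ± 0.27, SE; adjusted p = 0.00191). Zmiz1 held 9.76, 19.6 and 12.3 CPM with DFMO, against 52.8, 83.8 and 76.7 CPM with vehicle at chr14:25561693-25562744 (log2 change -2.41 ± 0.24, SE; adjusted p = 2.06e-09). Runx2, a RUNX factor known from bone, held 8.46, 6.82 and 1.3 CPM with DFMO, against 34, 30.9 and 29.5 CPM with vehicle at chr17:44766322-44766757 (log2 change -2.36 ± 0.39, SE; adjusted p = 6.9e-05). At Zfp438, 5 of 7 peaks fell, all of them within 56.4 to 79.6 kb of the gene model. These counts depended on single libraries. Rftn1 had 2 losses without DFMO library 3, 3 without vehicle library 2 or 3, 4 without DFMO library 1 and 2 after thinning. Zmiz1 had 3 without vehicle library 3. Ppp2r2a and Runx2 each had 3 without DFMO library 1 or vehicle library 2 or 3, and Zfp438 had 3 without DFMO library 3. After thinning Ppp2r2a had 1 and Zfp438 3. The threshold was missed in other fits at Rftn1 (adjusted p = 0.0516 after thinning).

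Fewer genes had many gains than had many losses: 41 genes had at least 3 gains and 85 had at least 3 losses. With any 1 library left out these counts were 7 to 16 and 21 to 71. Cradd, which encodes a death domain adaptor protein, gained 6 of 15 peaks, none at a small RNA gene, and lost none (median 0.72). It had 3 gains without DFMO library 1 and 2 after thinning. Its peak at chr10:95264596-95265449 held 30.9, 26.4 and 45.4 CPM with DFMO, against 9.44, 11.6 and 12 CPM with vehicle (log2 change 1.55 ± 0.24, SE; adjusted p = 1.85e-05). A smaller one at chr10:95255305-95255530 held 8.78, 3.41 and 9.08 CPM with DFMO, against 0, 0.457 and 0 CPM with vehicle (log2 change 4.55 ± 0.73, SE; adjusted p = 3.53e-05), where the vehicle values are at or near 0 and the fitted fold is no bound. Gm52481 had 6 gains in 9 peaks at the distal end of chromosome Y, a stretch with a near-identical copy on chromosome X, so which copy the counts came from is uncertain. It had 2 gains without DFMO library 1 or vehicle library 3 and 2 after thinning.

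**Figure D5:**
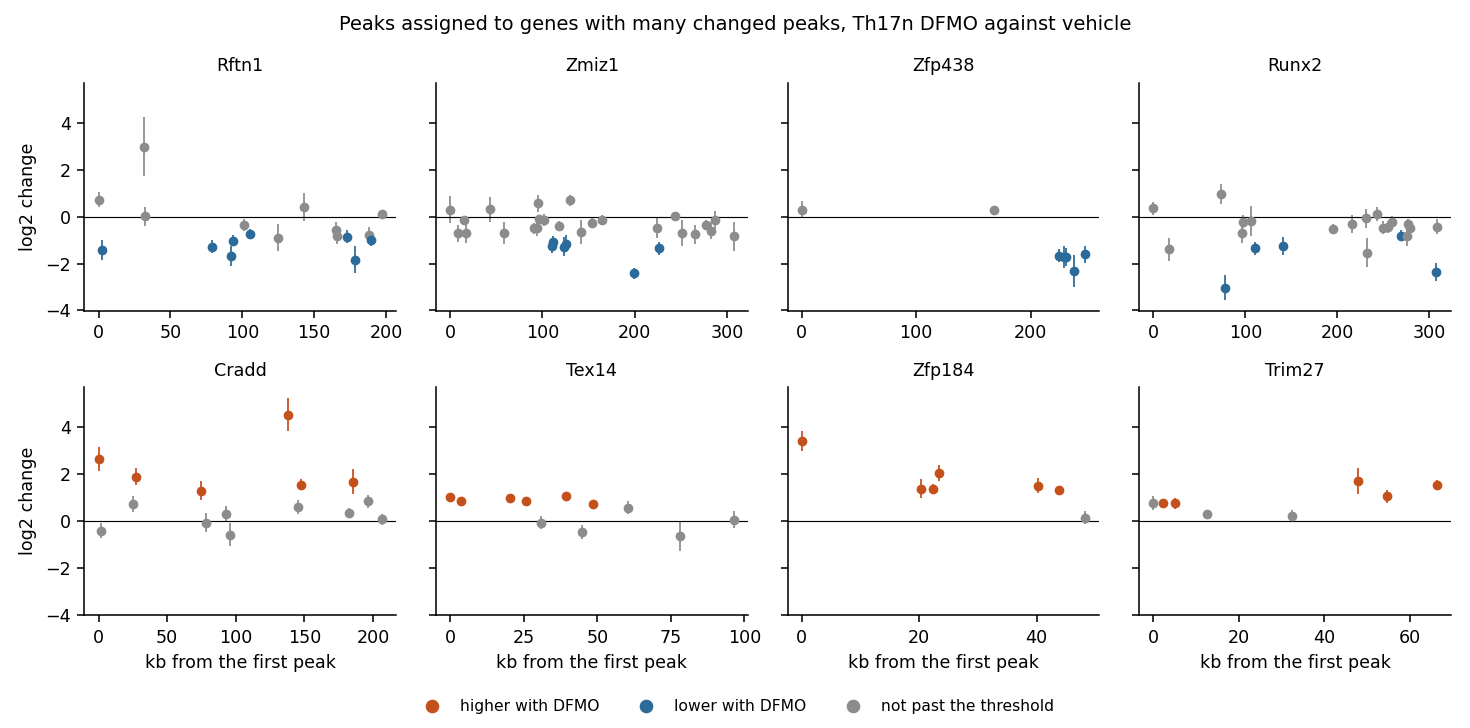
log2 change with DFMO in Th17n cells (y axis, error bars are the SE) of each tested peak assigned to 8 genes, by its distance in kb from the first of them (x axis). Rftn1, Zmiz1, Zfp438 and Runx2 have 8, 6, 5 and 5 losses and no gain, and Cradd, Tex14, Zfp184 and Trim27 have 6, 6, 6 and 5 gains and no loss.

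Letter patterns before gene starts were counted by direction of change. The 250 bases before a RefSeq start were taken where a tested peak covered at least 125 of them, which gave 573 starts under risen peaks, 215 under fallen peaks and 10559 under peaks that did not pass. Starts of 1 gene can share a peak, so these are not independent, and no test was made. The AP-1 pattern occurred in 4.89% of the stretches under risen peaks, 16.7% under fallen peaks and 4.02% under the others, against 6.75% of all 32851 stretches in the table. For the RUNX pattern the shares were 9.77%, 18.6% and 10.0%, against 14.0% of all, and for the nuclear receptor half-site pattern 6.98%, 15.3% and 9.2%, against 14.0% of all.

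The ETS pattern occurred in 21.5%, 13.5% and 23.5% of the same 3 sets and in 19.7% of all stretches. The GC box occurred in 58.5%, 59.5% and 65.0%, against 32.7% of all, and the IRF pattern in 3.49%, 1.86% and 2.26%, against 2.98% of all. The median GC content was 59.6% under risen peaks, 64.0% under fallen peaks and 62.4% under the others, and 52.4% over all stretches. CpG pairs numbered a median of 18, 15 and 18 per stretch, against 6 over all. An absent match says only that these letters are not in the window.

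The same peaks were looked up in iTreg cells. They were chosen on the Th17n change, so no comparison of size between the lineages is drawn from these medians. The peaks that rose in Th17n cells had a median log2 change of 0.29 in iTreg cells, and those that fell had -0.47. Of the Th17n gains 348 were also called in iTreg, 17.7% of the Th17n list and 20.8% of the 1677 iTreg gains (3.84% of peaks), and of the losses 399, 21.3% of the Th17n list and 19.3% of the 2065 iTreg losses (4.72%). The iTreg libraries carry the same 3 numbers, read as the same animals, but share no library with the Th17n comparison. In the sign of the log2 change, 76.4% of gains and 76.1% of losses matched, against 59.6% of peaks that did not pass in Th17n.

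The difference between the lineages was itself tested with the interaction contrast. It passed at 574 peaks, 1.31% of those tested, 365 of them (0.835%) with the more positive effect in Th17n and 209 (0.478%) with the more negative. It numbered 232, 371 and 340 without DFMO library 1, 2 or 3, 344, 314 and 192 without vehicle library 1, 2 or 3, and 197 after thinning. Psma6 went opposite ways: the difference was 2.28 ± 0.31 (log2, SE; adjusted p = 3e-05), and the iTreg change was -0.86 (adjusted p = 0.01). The loss at the Il4ra end differed by -1.49 ± 0.26 (adjusted p = 0.00112), with an iTreg change of 0.23, and that at Ripor2 by -2.10 ± 0.34 (adjusted p = 0.000451). Il17a differed by -2.78 ± 0.71 (adjusted p = 0.0328). That is more than its Th17n change of -1.28, so the fitted iTreg change at this peak was positive. Smox did not pass, with -1.49 ± 0.47 (adjusted p = 0.0947). Of the 155 tRNA peaks 6 had a more positive effect in Th17n and none a more negative one, and their median log2 change in iTreg cells was 0.34, with 31 of them risen there.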

How the data were processed

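ATAC-seq was measured in 12 libraries of 37 bp read pairs, after 30 minutes of tagmentation and 5 cycles of pre-amplification. The deposited values are read counts per peak over a peak set shared by all libraries. The authors used Trimmomatic, FastQC, Bowtie2 and MACS2 with build mm10, per the submitters' processing notes. The sources used here do not give versions, settings or the treatment of reads with several matches. Peaks were kept with edgeR 4.0.16 (R 4.3.3) filterByExpr at a minimum count of 10, scaled by TMM and tested with edgeR's quasi-likelihood test in 1 model of 4 group means over 12 libraries, with Benjamini-Hochberg adjustment over 43726 peaks. The steps were tested on simulated data. Depth ran from 1020937 to 6496550 counts, and in Th17n vehicle library 1 37.4% of tested peaks held under 10 counts.

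Peak coordinates are those of the table, which does not say whether starts count from 0 or 1. Genes, tRNA and other small RNA genes and promoters came from RefSeq (GRCm38.p6). Because no genome was used, sequence features were taken over promoters. The promoter table does not hold every gene, so gene ends stand in for starts where positions are counted.

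Named peaks were first the 10 gains and 10 losses with the smallest adjusted p, at most 1 per gene. These 10 each way had to go the same way in all 3 animals, so their agreement was a condition of choice. The others were up to 3 genes per list, the 6 genes with most gains and with most losses, the 5 largest fold changes each way at 20 CPM or more, the 5 strongest small RNA peaks each way, and 12 fixed genes. The members, the 30 gene lists and the tests were chosen with earlier results of these data known. The numbers in the labels were read as animals, although the deviations of same-numbered libraries from group means correlated at only -0.0062 to 0.023 in Th17n. Alternatives were DESeq2 1.42.0, RLE and total-count scaling, no filter, the Th17n libraries alone, animal as a block, thinning, an adjusted p under 0.01, other distances and each Th17n library left out. A few genes that the naming rule or the marker lists include are not reported here.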

Additional observations from a re-analysis of the deposited data

Results flagged for a closer look

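At 35 named peaks the effect of DFMO in Th17n cells differed from its effect in iTreg cells by edgeR's test of the interaction contrast (adjusted p under 0.05). Each value below is the log2 effect in Th17n minus that in iTreg, and a positive value means the more positive effect in Th17n. The named peaks were chosen for their change in Th17n, so large differences are more likely among them.

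More positive effects in Th17n were found at the gains with no protein-coding gene near, 2.95 at chr15:5758523-5759218 and 2.37 at chr18:79297612-79298381. At Cradd, 4 peaks had differences of 2.76, 2.74, 3.74 and 2.53. Psma6 differed by 2.28, Nrp1, which encodes a co-receptor found on regulatory T cells, by 2.01, and Mmrn1 by 1.82. The gains inside Stat3 and near Ahr differed by 1.61 and 1.22, and the gain at Nupr1, a stress response gene, by 1.61. The Mir210 peak at Rassf7, which fell less in Th17n than in iTreg cells, differed by 1.02. In some edgeR fits the Th17n call was lost at Nupr1 (adjusted p up to 0.233, after thinning) and Nrp1 (0.0843 without DFMO library 1). It was also lost at the Cradd peaks with differences of 2.74 (up to 0.0647, without DFMO library 1) and 2.53 (up to 0.226, without vehicle library 2).

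Peaks at small RNA genes made up the rest of the positive differences. The tRNA gene peaks had differences of 0.764 at Mrpl58, 0.788 and 1.05 at Ctc1 and 1.14 at Osbp. The difference was 1.03 at the Snord118 peak of Tmem107 and 0.798 at the Rnu3b4 peak of Tex14. At the snRNA gene peaks near Slfn14, Arl4d and Kif2c the differences were 0.794, 0.819 and 0.798.

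More negative effects in Th17n were found at Mrps28, with -5.16, Papss1, with -4.28, and Myo3b, a myosin gene, with -3.48. Ndrg1, a gene that hypoxia induces, had -3.47. At the Il17a start the difference was -2.78, beyond the Th17n change of -1.28, so part of it came from a positive iTreg change. The transcription factor genes Satb1 and Etv6 had -2.4 and -2.05. Ripor2 had -2.1, Rftn1 -1.75, Slamf7 -1.6, Il4ra -1.49 and Pdp1 -1.4. The difference at Tnfrsf1b, a TNF receptor gene, was -0.685.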

How the results depend on the processing

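The counts of calls varied with depth, setting and library. Thinning every library to the shallowest left 30934 peaks to test, with 844 gains, 878 losses and 197 interaction calls. An adjusted p under 0.01 left 768 gains and 690 losses. With 1 Th17n library left out, gains ranged over 728 to 1166, losses over 909 to 1724 and interaction calls over 192 to 371. A fit of the 6 Th17n libraries alone gave 2576 gains and 2988 losses. With DESeq2, gains were 1485 and losses 1646, with RLE scaling 1729 and 2079, with total counts 1801 and 2040, and with no filter 1611 and 2130. With animal as a replicate block, gains were 1957, losses 1772 and interaction calls 686. No peak called in the main fit was called in the opposite direction in any of these fits. Counting a gene end within 500 bp put 24.4% of gains, 10.8% of losses and 24.6% of other peaks there, and within 3 kb 33.1%, 20.7% and 35.2%. Requiring overlap with an snRNA gene raised the share of gains there to 85.7%.

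Of 192 named peaks past the threshold, 101 passed in every fit, 82 lost the call with at least 1 library left out and 60 under at least 1 other setting. The Odc1 end, with a log2 change of 0.03, took -0.0037 with DESeq2, -0.0032 with RLE scaling and -0.012 with no filter, and -0.086 to 0.096 with 1 library left out. A peak near Il10, at 0.17, took -0.29 to 0.44 with 1 library left out. The causes were not tested.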
